A study of Mus musculus with 62 samples.

Results

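The regions described here are sites of histone H3 lysine 27 acetylation (H3K27ac) that were called as peaks in both the soleus (Sol) and the quadriceps (Quad) of the mouse, and the question is how strongly each site was acetylated in one muscle relative to the other. Peaks of the Sol list (34173) and of the Quad list (40949) were matched one to one where they overlapped by at least 50% of both, which gave 19468 matched regions, or 57.0% of the Sol peaks and 47.5% of the Quad peaks. A further 7059 Sol peaks and 7367 Quad peaks overlapped a peak of the other list without such a match, and 7646 Sol peaks and 14114 Quad peaks overlapped none. Only matched regions were compared, so a site acetylated in a single muscle is not among them.

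The series profiles muscles of C57BL/6 mice (C57BL/6J in the methods) by chromatin immunoprecipitation and sequencing (ChIP-seq) and by transposase-accessible chromatin sequencing (ATAC-seq). The Sol and Quad groups each had 2 H3K27ac libraries, from wild-type, sedentary animals, which the methods describe as males. Each Quad library came from a single muscle of 1 animal, whereas each Sol library pooled the muscles of several animals, so the spread between Sol libraries is a spread between pools. Total tags were 20277170 and 19783028 in the Sol libraries and 24195147 and 15271950 in the Quad libraries. The other groups used below were the extensor digitorum longus (EDL) and the diaphragm (Dia) of the same kind of mouse, quadriceps of sedentary (Sed) and exercised (Ex) mice, the latter kept with a running wheel, and quadriceps of mice carrying a skeletal muscle-specific PGC1a transgene (mTg) with their wild-type littermates (Wt), again with 2 libraries each.

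H3K27ac marks active promoters and enhancers, the stretches of DNA whose bound factors raise transcription of a gene that may lie far away. The mouse soleus is a postural muscle rich in slow and fast oxidative fibers, while most of the quadriceps is made of fast glycolytic fibers. Slow fibers use slow isoforms of myosin, troponin and the calcium pump and burn fat and lactate, and fast glycolytic fibers use the fast isoforms and depend on glycogen breakdown and glycolysis. Genes such as Sox6, a repressor of the slow program, and Esrrg and Ppargc1a, which drive the oxidative program, are known parts of the circuit that sets the fiber type.

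The 6 windows of 300 bases printed next lie under the strongest Quad ATAC peak of named regions and touch no exon of the RefSeq annotation. Adamts5, Mpst and Nxph3 were picked as named lower regions whose window held a MEF2 box, the site of the myocyte enhancer factors. Hk2 and Sox6 were added by choice, and Slc2a4 is the named higher region with a window clear of exons. The Sox6 window lies inside the Quad peak but past the end of the matched Sol peak (chr7:116039241-116040138). The Sol level of that region was therefore not measured over the printed bases, and its label refers to the matched peaks. They were read from the GRCm38.p6 assembly (the mm10 build) on the plus strand, 5′ to 3′. Capitals mark words of transcription factors that are named after the sequences, on either strand.
Adamts5, lower in Sol, chr16:86044735-86045034: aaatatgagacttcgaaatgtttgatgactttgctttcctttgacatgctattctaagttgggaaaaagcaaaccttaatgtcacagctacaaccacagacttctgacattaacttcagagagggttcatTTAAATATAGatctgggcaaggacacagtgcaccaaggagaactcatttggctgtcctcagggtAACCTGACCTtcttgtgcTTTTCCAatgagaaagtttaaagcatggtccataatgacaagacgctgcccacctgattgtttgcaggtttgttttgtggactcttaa
Mpst, lower in Sol, chr15:78412868-78413167: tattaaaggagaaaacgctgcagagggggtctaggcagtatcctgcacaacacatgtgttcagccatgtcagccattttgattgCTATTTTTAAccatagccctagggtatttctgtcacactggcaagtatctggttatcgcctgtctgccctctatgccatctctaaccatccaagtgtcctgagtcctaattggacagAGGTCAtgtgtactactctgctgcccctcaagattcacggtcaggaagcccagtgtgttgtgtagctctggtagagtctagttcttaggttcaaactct
Nxph3, lower in Sol, chr11:95547971-95548270: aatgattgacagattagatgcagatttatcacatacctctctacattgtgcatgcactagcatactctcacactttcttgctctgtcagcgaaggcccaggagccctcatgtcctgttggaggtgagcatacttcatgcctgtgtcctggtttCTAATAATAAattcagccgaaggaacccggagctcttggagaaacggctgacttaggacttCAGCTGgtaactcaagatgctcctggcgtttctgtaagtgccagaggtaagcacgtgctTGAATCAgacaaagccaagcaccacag
Sox6, lower in Sol, chr7:116040201-116040500: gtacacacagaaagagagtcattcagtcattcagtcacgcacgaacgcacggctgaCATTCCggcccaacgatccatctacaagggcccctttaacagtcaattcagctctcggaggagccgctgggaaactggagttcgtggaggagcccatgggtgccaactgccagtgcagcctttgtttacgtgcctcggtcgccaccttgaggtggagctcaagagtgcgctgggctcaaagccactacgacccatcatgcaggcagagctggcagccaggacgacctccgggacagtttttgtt
Hk2, lower in Sol, chr6:82807043-82807342: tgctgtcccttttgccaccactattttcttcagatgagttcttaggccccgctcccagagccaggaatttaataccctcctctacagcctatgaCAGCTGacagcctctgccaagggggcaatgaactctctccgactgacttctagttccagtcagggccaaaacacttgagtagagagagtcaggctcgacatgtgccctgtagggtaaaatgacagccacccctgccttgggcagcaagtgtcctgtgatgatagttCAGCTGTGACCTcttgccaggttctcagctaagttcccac
Slc2a4, higher in Sol, chr11:69955831-69956130: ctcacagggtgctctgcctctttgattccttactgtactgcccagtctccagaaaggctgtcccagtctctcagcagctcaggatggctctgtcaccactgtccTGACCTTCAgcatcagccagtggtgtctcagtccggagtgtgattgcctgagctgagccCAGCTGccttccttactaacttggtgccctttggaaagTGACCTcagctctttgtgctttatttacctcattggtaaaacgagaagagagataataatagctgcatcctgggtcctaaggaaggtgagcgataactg

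The Adamts5, Mpst and Nxph3 windows each held 1 MEF2 box, which their choice required and which therefore says nothing of other lower regions. The Mpst window also held a nuclear receptor half-site (AGGTCA). The Adamts5 window also held a MEF3 word (TCAGGTT), an NFAT word (TGGAAAA) and a half-site, and in the Nxph3 window an E-box (CAGCTG) and an AP-1 word (TGANTCA) stood beside the MEF2 box. The Hk2 window held 2 E-boxes and 1 half-site, and the Sox6 window held 1 MCAT word (GGAATG, the site of TEAD factors). The Slc2a4 window carried 2 half-sites, 1 of which lay within the longer word TNAAGGTCA that estrogen-related receptors (ERR) bind, and 1 E-box.

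H3K27ac levels of the muscles followed each other closely across the matched regions. The level of a region in a library is given throughout as log2 tags per kb of peak width relative to the median matched region of that library, so that 0 is the median region and 1 is 2-fold above it. Spearman's rho between the mean Sol and mean Quad level was 0.87 over the 19468 regions, and 0.84 to 0.87 over the 4 pairings of single libraries, against 0.95 between the Sol libraries and 0.94 between the Quad libraries. These are descriptions across regions, which are not replicates. The difference, Sol minus Quad, had an SD of 0.45 over regions and lay between -0.78 and 0.67 for the central 90% of them, while replicates differed from each other with an SD of 0.27 in Sol and 0.32 in Quad.

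A region was called where the group means differed by over 2-fold and the 2 libraries of one muscle lay apart from the 2 of the other. By this rule 243 regions were higher in Sol, 1.248% of the 19468, and 485 were lower in Sol, 2.491%, which made 728 in either direction (3.739%). Every region past 2-fold also had groups that did not overlap. No test stands behind these calls, since the authors normalized each list on its own, and 2 libraries against 2 could not reach 0.05 in an exact permutation test. Lower calls made up 66.6% of them. The higher regions were nearest to 232 genes and the lower regions to 451 genes, and 7 genes (Glul, Nampt, Rplp1, Sgms1, Tbl1xr1, Tmcc3 and Zfp462), named after their values were seen, had regions of both kinds. Differences over 4-fold were rarer, with 4 higher and 12 lower regions. Just inside the threshold were a region near Mir5709 (1.0005) and one near Munc (-1.0005), and just outside it regions near Gfod2 (0.9989) and Abcd2 (-0.9999).

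**Figure D1:**
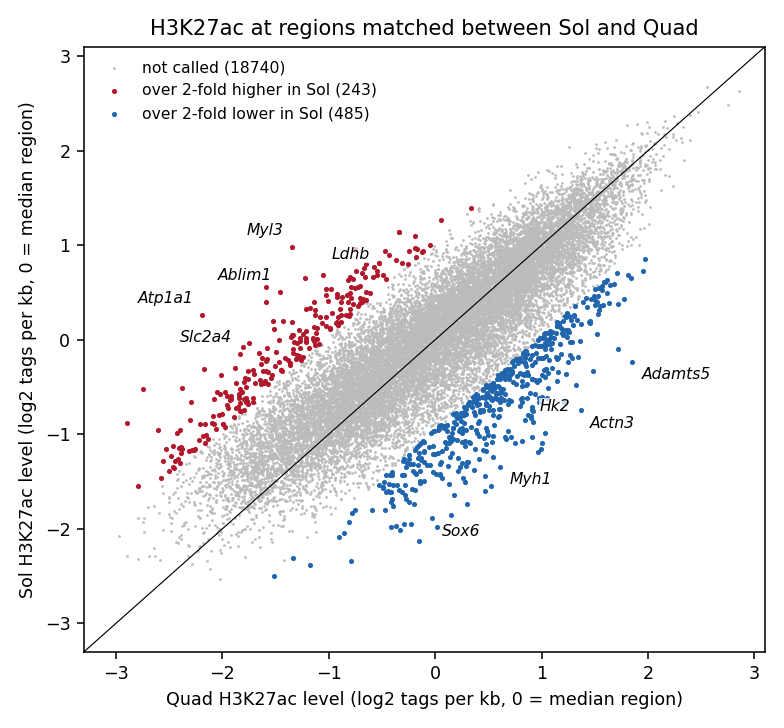
Mean H3K27ac level in Quad (x axis) and Sol (y axis) at the 19468 matched regions, both in log2 tags per kb with 0 at the median region. Red points are the 243 regions over 2-fold higher in Sol, blue points the 485 over 2-fold lower and grey points the rest, and the line marks equal levels. The red points thin out toward high levels, while blue points run along the whole range.

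The input columns of the lists moved with the calls. Input is chromatin sequenced without antibody, and its level per kb was higher in the Sol list at 236 of the 243 higher regions (median difference 0.81) and lower at 470 of the 485 lower regions (median -0.61). With the input level of the same list subtracted, an alternative chosen after seeing the data, 90 regions were higher and 114 lower, and they held 21 and 68 of the original calls. The input columns were transformed by the authors together with the H3K27ac columns, and the Sol list had 1 input library where the Quad list had 2. Their part in the differences was not tested. Of the regions discussed further on, Actn3 kept a difference of -1.09, Slc16a3 of -1.10, Myl3 of 1.44 and Ldhb of 0.74 with the input subtracted, and Slc2a4 kept 0.49, whereas Tbc1d1 was at 0.03 and the intergenic Sox6 region at -0.06. The peak score per kb, which takes no such transformation, passed 2-fold at 140 of the 243 and 436 of the 485 regions, but it counts tags of the same libraries over the same peaks and is no separate support. Leaving out Quad replicate 1 raised the number of higher regions from 243 to 452, and leaving out any other library moved neither count by over 1.5 times.

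Called regions lay away from promoters. Promoters made up 19.2% of all matched regions but 12 of the 243 higher regions (4.94%) and 16 of the 485 lower regions (3.30%). Put the other way, 0.320% of promoter regions were higher and 0.427% lower, against 1.29% and 3.05% of intragenic and 1.82% and 2.86% of intergenic regions. The median distance to the nearest transcription start was 21.8 kb for the higher regions, 21.1 kb for the lower regions and 7.92 kb for all matched regions. The calls also differed in strength. Of the higher regions 135 fell among the 4867 regions with the lowest mean level and 2 among the 4867 with the highest, whereas 84 of the lower regions fell among the lowest 4867 and 71 among the highest. Differences as a whole followed the level, with a median of 0.14 over the lowest 4867 and -0.08 over the highest. After quantile normalization, which gives all 4 libraries the same distribution, 185 regions were higher and 495 lower. They held 176 and 441 of the original calls. The median level of the higher regions was -0.09 in Sol and -1.36 in Quad, so that they were ordinary sites in Sol and weak ones in Quad. The median level of the lower regions was 0.59 in Quad and -0.64 in Sol. Peaks were broader in the muscle with the higher level, with 178 of the 243 higher regions wider in Sol and 352 of the 485 lower regions wider in Quad. Width enters the level, so this is no separate measurement.

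Among regions higher in Sol, one of the largest differences lay in an intron of Myl3, the slow ventricular myosin light chain (chr9:110763360-110766314), with 1.11 and 0.84 in Sol and -1.25 and -1.45 in Quad, or 4.86-fold. Here the Sol peak spanned 5340 bases and the Quad peak 2955. Regions 203 kb from Gm8633 (4.30-fold), in Drp2, a dystrophin relative of Schwann cells and nerve (3.92-fold), in Mier3 (3.83-fold) and at Ablim1, which codes for an actin-binding protein (3.77-fold), came next. The Drp2 region was weak in both muscles, at -0.85 and -0.90 in Sol and -2.94 and -2.85 in Quad. Regions nearest to Heatr5a, Emcn, Rnmtl1, B3galt2, 4931430N09Rik and Mas1 were 3.20-fold to 3.55-fold higher in Sol. With the input subtracted, the Gm8633, Mier3, Heatr5a and B3galt2 regions kept differences of 0.93 to 1.16. Those of Drp2, Ablim1, Rnmtl1, 4931430N09Rik and Mas1 were at 0.24 to 0.52, and that of Emcn was at -0.13.

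Some regulators of the oxidative program had regions of this kind, although their list of fiber-type factors had more lower than higher calls. Of its 171 regions 4 were higher (2.34%) and 7 lower (4.09%), against 1.248% and 2.491% of all matched regions. Ppargc1b, the gene of the related coactivator PGC1b, had a region called in the lower direction. A region inside Esrrg (chr1:187647906-187653854), which codes for estrogen-related receptor gamma, stood at 0.99 and 0.62 in Sol and at -0.39 and -0.91 in Quad, a difference of 1.41. With the input subtracted this difference was 0.655. The other 2 matched regions of Esrrg were each 0.74 higher in Sol, short of 2-fold. Its relative Esrrb had 1 region of 2 called, at its start, with -0.37 and -0.78 in Sol and -1.74 and -1.95 in Quad. Of the 8 matched regions of Ppargc1a, the gene of the coactivator PGC1a, the one 24 kb upstream was called, at 0.42 and -0.24 in Sol and -0.59 and -1.83 in Quad, whereas the other 7 lay between -0.84 and 0.27. One called region of a gene did not stand for all of its regions.

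Metabolic genes were represented by Slc2a4 and Ldhb. The region 7.7 kb upstream of Slc2a4, which codes for the insulin-responsive glucose transporter GLUT4 and whose ATAC window is printed above, had 0.01 and -0.32 in Sol and -1.49 and -2.19 in Quad, or 3.12-fold. The region within Slc2a4 itself ran the other way, at 1.21 and 0.98 in Sol and 1.47 in both Quad libraries. At the start of Ldhb, the lactate dehydrogenase subunit that favors lactate use, levels were 0.90 and 0.56 in Sol and -0.50 and -0.59 in Quad, or 2.34-fold.

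Most of the 12 largest regions lower in Sol lay far from the start of their nearest gene. Those at Actn3 and Mpst were closer, at 1.2 and 5.6 kb. The Gramd4 intron had -0.93 and -1.44 in Sol and 1.33 and 0.60 in Quad (4.58-fold), and a region 23 kb from Prkab1, a beta subunit of the energy sensor AMPK, had -0.92 and -1.39 against 1.00 and 0.98 (4.57-fold). The third was Actn3 (chr19:4874060-4879316), the alpha-actinin of fast glycolytic fibers. It stood at -0.72 and -0.77 in Sol and at 1.38 and 1.35 in Quad, so both muscles were measured tightly and lay 4.46-fold apart. A region 144 kb from Adamts5, a matrix protease gene, was among the strongest in Quad at 1.77 and 1.93 and near the lower side of the median in Sol at -0.28 and -0.18. Regions at Sh2d4a, Map4k4, Xylt1, Mpst, 4930405A10Rik, Nxph3, Tmem104 and Nrip1 completed the 12 largest, 4.06-fold to 4.41-fold lower in Sol. With the input subtracted, Map4k4 was at -0.37 and Tmem104 at -0.56. The rest of the 12 other than Nrip1 lay between -1.45 and -0.76. Nrip1 codes for RIP140, a corepressor of nuclear receptors known to restrain oxidative metabolism, and its region, 272 kb away, had a difference of -2.02, which with the input subtracted was 0.04. At 4930405A10Rik all 3 matched regions were called lower.

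Sox6 was the fiber-type regulator with the most called regions. In all, 3 of its 6 matched regions were lower in Sol. An intergenic region 1.3 kb upstream of a start had -1.85 and -1.92 in Sol and 0.35 and -0.40 in Quad, but with the input subtracted its difference was -0.06. An intronic region at the same distance from another start had 0.73 and 0.63 against 1.92 and 1.71, and one 255 kb into the gene had -0.16 and -0.34 against 0.76 and 0.93. Of its other regions, 2 were lower by 0.50 and 0.48 without being called and 1 was higher by 0.50. Trib1, a pseudokinase gene, had 2 lower regions, and Mafa and Ppargc1b had 1 each. Mkl2, a coactivator of serum response factor, had 3 lower regions among 7.

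**Figure D2:**
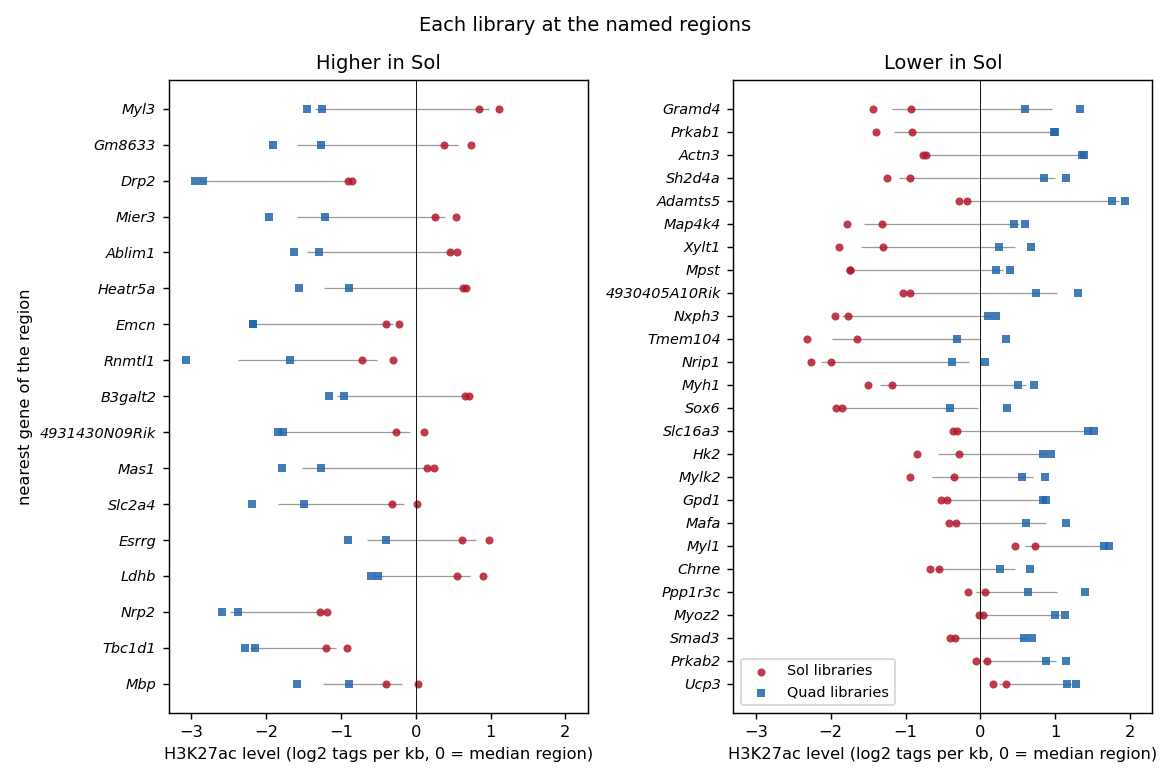
H3K27ac level (x axis, log2 tags per kb with 0 at the median region) in each of the 2 Sol libraries (red circles) and 2 Quad libraries (blue squares) at the 17 named regions higher in Sol (left) and the 26 lower in Sol (right), labelled by nearest gene; grey lines join the group means. At no region do red and blue points cross, and at Rnmtl1 the Quad libraries lie far apart.

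Genes of the contractile apparatus were grouped by fiber type. The list of fast contractile and fast calcium handling genes had 23 matched regions at 15 of its 20 genes, of which none was higher and 5 (21.7%) were lower in Sol, against 2.491% of all matched regions, with a median difference of -0.56 beside 0 for all matched regions. The lower regions were at Actn3, Myh1, the fast IIx myosin heavy chain, Mylk2, the myosin light chain kinase of skeletal muscle (2.65-fold), Myl1, the fast alkali light chain (2.20-fold), and Tpm1 (-1.07). The Myh1 region (chr11:67203426-67206703) lay 5.0 kb inside the gene, at -1.18 and -1.51 in Sol and 0.50 and 0.72 in Quad, while the regions at the Myh1 promoter and 3.4 kb upstream differed by -0.43 and -0.30. Groups failed to overlap in the lower direction, at any size, in 15 of the 23 regions (65.2%), against 27.06% of all matched regions. With the input subtracted the median of the list was -0.26. Myh2, the IIa myosin of fast oxidative fibers, was on the list but its 2 regions were 0.35 and 0.57 higher in Sol. The first of these was at -0.11 with the input subtracted and at 0.03 without the width term.

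The slow contractile and slow calcium handling genes had 17 matched regions at 11 of 18 genes, with a median of 0.34. Of these regions 1 was higher (Myl3) and 1 lower (5.88% each), against 1.248% and 2.491% of all matched regions. The lower region is assigned to Myoz2, a slow-fiber Z-disc protein, but lies 95 kb from its start, and the Myoz2 region 57 kb away was 0.87 higher. Tpm3, the slow tropomyosin, was 0.68 higher in Sol, at 0.67 and 0.66 against -0.08 and -0.04. With the input subtracted the median of this list was -0.04, so its sign did not hold. Several defining genes could not be compared. Myh7, the slow myosin heavy chain, was nearest to 3 Sol peaks and 0 Quad peaks, Pvalb, the calcium buffer of fast fibers, to 5 Quad and 2 Sol peaks without a match, and Myh4, the IIb myosin, to 2 Quad and 1 Sol peak without a match. At the marker genes with a matched region, the strongest was at Atp2a1, the fast calcium pump, with 1.30 and 1.15 in Sol and 2.09 and 1.94 in Quad (1.78-fold lower in Sol), and those of Atp2a2, the slow pump, and Tnnt1, the slow troponin T, were 0.47 and 0.43 higher in Sol, although with the input subtracted they were at -0.32 and -0.06.

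Glycogen and glycolysis genes were mostly less acetylated in Sol. Their 40 matched regions at 24 of 32 genes had a median difference of -0.70, and 37 lay below 0. Of these 7 (17.5%) were called lower, against 2.491% of all matched regions, at Slc16a3, the lactate exporter MCT4 (3.64-fold), Hk2, which phosphorylates glucose (2.83-fold), Gpd1, the cytosolic glycerol phosphate dehydrogenase (2.61-fold), Gapdh, Ppp1r3c, a glycogen-targeting subunit of protein phosphatase 1, Tpi1 and Pygm, the muscle glycogen phosphorylase. Slc16a3 (chr11:120944929-120956037) stood at -0.36 and -0.31 in Sol and 1.44 and 1.52 in Quad, and Tpi1 at 0.52 and 0.62 against 1.66 and 1.62. Groups did not overlap in the lower direction in 29 of the 40 regions (72.5%), against 27.06% of all matched regions. Regions short of 2-fold included Pfkm (-0.80), Aldoa (-0.75), Gpi1 (-0.72), Ldha (-0.72) and Pgam2 (-0.70), all enzymes of glycolysis. Eno3, the muscle enolase, differed by -0.03. The lone region called higher was the one upstream of Slc2a4. With the input subtracted the median of the list was -0.35.

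Genes of oxidative metabolism had small median differences at matched regions. The 41 regions of oxidative phosphorylation and the TCA cycle had a median of -0.07. None was called in either direction, against 3.739% of all matched regions, a share that gives few calls in 41 regions. The 55 regions of fatty acid uptake and oxidation, ketone and lactate use had a median of 0.06. Ldhb was called higher and Ucp3, a mitochondrial uncoupling protein gene, lower (0.34 and 0.17 in Sol, 1.28 and 1.16 in Quad). Each of these calls was 1.82% of the list, near the 1.248% and 2.491% of all matched regions. The 7 matched regions of Cd36, the fatty acid translocase, lay between -0.24 and 0.29.

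The list of fiber-type transcription factors and coactivators, the longest with 171 regions at 46 genes, had 4 higher (2.34%) and 7 lower (4.09%) regions, against 1.248% and 2.491% of all matched regions, and a median of -0.08. Of 86 regions of the insulin, AMPK and circadian list, 1 was higher (Tbc1d1, a regulator of GLUT4 traffic) and 2 were lower (Prkab2, the muscle beta subunit of AMPK, and Ppp1r3c). These shares, 1.16% and 2.33%, are near those of all matched regions. Of 52 regions of myogenic regulatory and growth factors only the one near Smad3, which carries myostatin and TGF-beta signals, was called, and it was lower (1.92%). At the neuromuscular junction 1 of 21 regions was lower (4.76%), 3.0 kb upstream of Chrne, the adult acetylcholine receptor subunit. Of 37 regions of angiogenic signals the one near Nrp2, a receptor of growth factors, was higher (-0.28 with the input subtracted), and none of 28 regions at limb position and Hox genes was called. At the shares of all matched regions, lists of this size hold few calls or none.

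Most marker lists of other cells had medians above 0. The median difference was 0.25 over 40 endothelial regions, 0.29 over 11 smooth muscle and pericyte regions, 0.32 over 10 adipocyte regions, 0.47 over 7 macrophage regions, 0.21 over 7 Schwann and nerve regions and 0.44 over 5 satellite cell regions, and -0.08 over 25 fibroblast regions. Weak regions of any gene leaned the same way, with a median of 0.14 over the 4867 of lowest mean level. Without those 4867, the macrophage, Schwann and nerve, and satellite cell medians were 0.12, 0.04 and 0.16, over 2 regions each. The endothelial, adipocyte, and smooth muscle and pericyte medians were then 0.26, 0.36 and 0.55, over 21, 8 and 3 regions. Calls were limited to Emcn, an endothelial sialomucin, and Mbp, a myelin protein, both higher in Sol. They were 2.5% of the endothelial and 14.3% of the Schwann and nerve regions, against 1.248% of all matched regions. The Emcn region, 190 kb from the gene, stood at -0.39 and -0.22 in Sol and -2.17 in both Quad libraries, and with the input subtracted its difference was -0.13. Endothelial groups did not overlap in the higher direction in 26 of 40 regions (65.0%), against 33.73% of all matched regions. With the input subtracted the endothelial, adipocyte and macrophage medians were -0.01, -0.01 and 0.02. Those of smooth muscle and pericyte, Schwann and nerve, and satellite cell regions were 0.397, 0.13 and 0.735. In whole muscle, more cells of a type and more acetylation per cell cannot be told apart, and the part of cell composition in the calls was not tested.

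**Figure D3:**
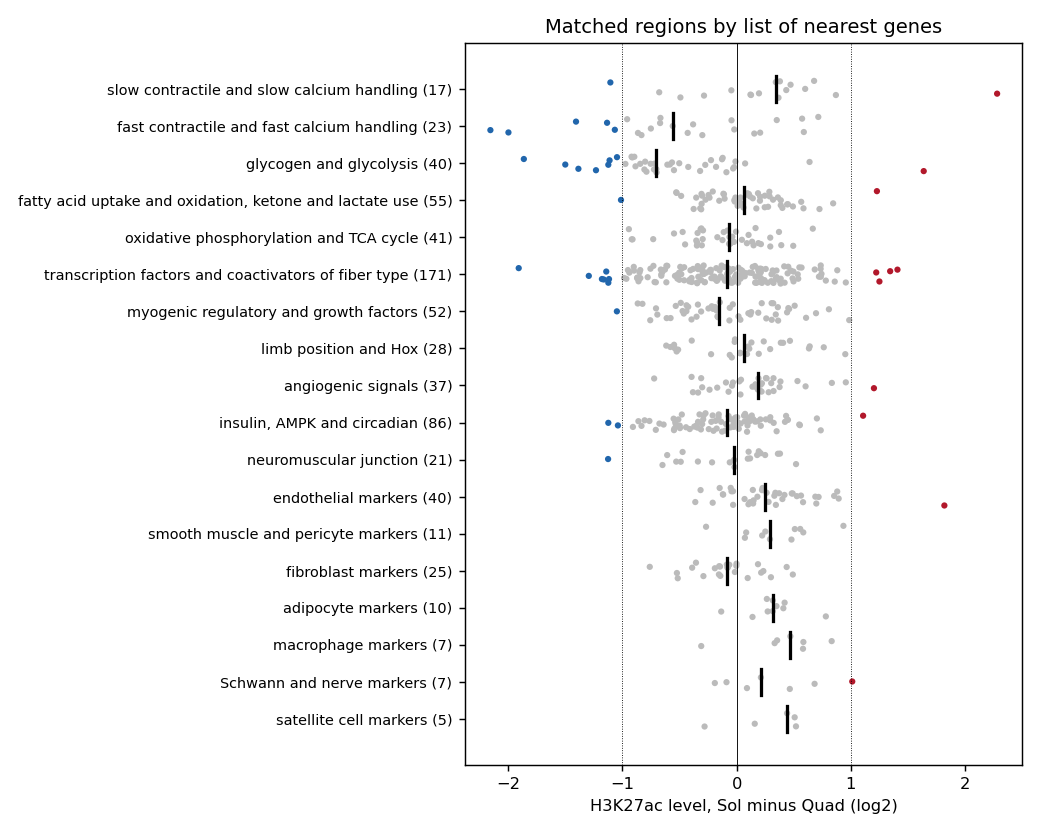
Difference in H3K27ac level, Sol minus Quad (x axis, log2), of each matched region by list of nearest genes, with the number of regions in parentheses. Red and blue points are called higher and lower regions, black bars are medians, and dotted lines mark 2-fold; the medians of the glycogen list (-0.70) and the fast contractile list (-0.56) lie furthest from 0, and their order turned at an overlap of 80% (-0.717 and -0.755).

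H3K4me2, a mark of promoters and enhancers measured in separate Sol and Quad libraries, differed in the same direction. Its lists hold the same input libraries as the H3K27ac lists, transformed by the authors together with the mark, and the part of the input in these differences was not tested. It had a matched peak in both muscles at 39 of the 243 higher regions and 112 of the 485 lower regions. All 39 higher regions had more H3K4me2 in Sol, with a median difference of 0.56, and 111 of the 112 lower regions had less, with a median of -0.56. Over 7351 regions that were not called, 50.5% were above 0 with a median of 0.00. Past 2-fold without overlap were 9 of the 39 (23.1%) and 18 of the 112 (16.1%), against 0.36% and 0.44% of all 7502 regions with values. Emcn was 1.09 higher in Sol by this mark and Drp2 1.07, and Gramd4 was 1.47 lower, Map4k4 1.22 lower and Chrne 1.04 lower. Leaving out each H3K4me2 library in turn kept the median of the lower regions between -0.59 and -0.51.

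The comparison of Dia with EDL shares no library with that of Sol and Quad. Dia is an oxidative muscle that works without pause, and EDL is a fast glycolytic muscle of the leg. At the 268 lower regions with a matched peak in both, H3K27ac was lower in Dia at 248 (92.5%), with a median of -0.65, and over 2-fold lower without overlap at 62 (23.1%), against 1.54% of the 13077 matched regions with values. At the 108 higher regions it was higher in Dia at 77 (71.3%), with a median of 0.40, and over 2-fold higher at 13 (12%), against 0.612%. Without EDL replicate 2 the median of the higher regions was 0.24. Regions that were not called had a median of 0.01 over 12701. Among named regions Slc16a3 was 1.52 lower in Dia than in EDL, 4930405A10Rik 1.53, Gramd4 1.42 and Actn3 1.19, and 4931430N09Rik was 1.23 higher and B3galt2 1.03. Mafa (0.15) and Ablim1 (-0.18) differed little between Dia and EDL although they were called between Sol and Quad.

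Levels in all the muscles stood side by side at the 231 lower regions that had a matched peak in the 6 lists of Sol, Quad, EDL, Dia, Sed and Wt. Median levels in the libraries were -0.38 and -0.44 in Sol, -0.34 and -0.27 in Dia, 0.37 and 0.44 in EDL, 0.82 and 0.75 in Quad, 0.23 and -0.08 in Sed and 0.20 and 0.33 in Wt. The Quad libraries, which entered the choice of these regions, stood above those of Sed and Wt. At the 45 higher regions found in all 6 lists, medians were 0.67 and 0.52 in Sol, -0.02 and -0.17 in Dia, -0.08 and -0.39 in EDL, -0.48 and -0.91 in Quad, -0.54 and -0.59 in Sed and -0.94 and -0.74 in Wt. When the whole comparison was made with the Sed list in place of the Quad list, 240 of 18656 matched regions were higher in Sol (1.29%) and 238 lower (1.28%), and with the Wt list 505 of 17845 were higher (2.83%) and 353 lower (1.98%). The excess of lower over higher calls was thus not seen with the Sed list and turned around with the Wt list.

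The regions lower in Sol were mostly lower in exercised than in sedentary quadriceps. This is again a description, and no test was run. Of the 270 with matched peaks in Sed and Ex quadriceps, H3K27ac was lower after exercise at 259 (95.9%), with a median of -0.69, and over 2-fold lower without overlap at 51 (18.9%), against 1.74% of the 11981 regions with values. The 48 higher regions had a median of 0.09, and the 11663 that were not called had 0.01. Levels at Sh2d4a were 0.88 and 1.05 in Sed and -0.62 and -0.33 in Ex, a difference of -1.43, and at Gpd1 0.88 and 0.49 against -0.27 and -0.70. At Actn3 they were 0.90 and 0.58 against -0.08 and -0.33. Leaving out each library in turn gave medians for the lower regions from -0.89, without Sed replicate 2, to -0.45, without Sed replicate 1, and 89.3% or more of the regions stayed below 0.

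In mTg quadriceps the shift lay with the regions higher in Sol. At the 53 regions higher in Sol with matched peaks in Wt and mTg quadriceps, H3K27ac was higher in mTg at 40 (75.5%), with a median of 0.41, and over 2-fold higher without overlap at 10 (18.9%), against 1.24% of 9845 regions. At the 309 lower regions, 12 (3.88%) were over 2-fold lower in mTg, against 1.95% of all with values. Their median was -0.06, and 178 (57.6%) were below 0, with medians from -0.15 to -0.02 as each library was left out. Ldhb stood at -1.13 and -0.93 in Wt and -0.19 and -0.10 in mTg, a difference of 0.99, whereas Esrrg differed by -0.08. Of the lower regions Xylt1 (-1.36) and Mylk2 (-1.30) were lower in mTg as well, and Slc16a3 was 0.41 higher. Whether the exercise and transgene effects differ at these regions was not tested.

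**Figure D4:**
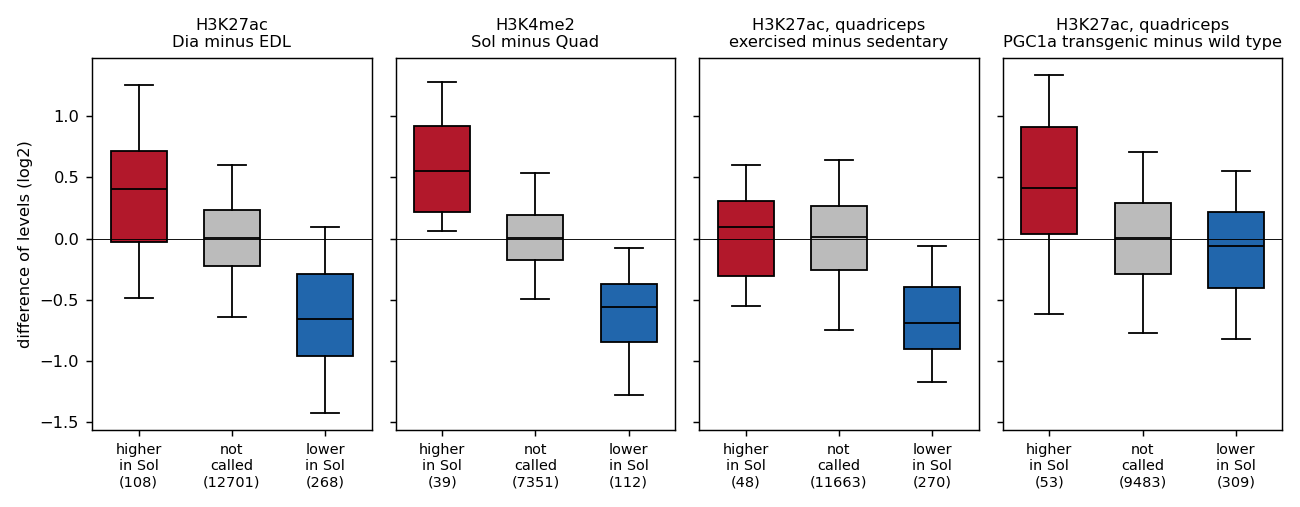
Differences in level (y axis, log2) in 4 comparisons made on other libraries, for regions higher in Sol (red), not called (grey) and lower in Sol (blue), with the number of regions that had matched peaks in both groups. Boxes span the quartiles with the median as a line, and whiskers run from the 5th to the 95th percentile; the blue boxes lie below 0 for Dia minus EDL, H3K4me2 and exercise, and the red box lies above 0 for H3K4me2 and the transgene.

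Accessible chromatin of the quadriceps was found at most regions lower in Sol and at fewer of those higher in Sol. A Quad ATAC peak overlapped 422 of the 485 lower regions (87.0%), 96 of the 243 higher regions (39.5%) and 79.7% of all matched regions. Higher regions were weak in Quad by the rule, and Sol ATAC peaks were not used here. These overlaps and those of MED1 were counted on the Quad peak, also for Sol MED1. Its median width was 1426 bases at the higher, 2928 at the lower and 2136 at all matched regions. A wider peak can meet more peaks by its width, and the part of width in these shares was not tested. MED1, a subunit of the Mediator complex that links enhancers to polymerase, was mapped in both muscles. Each muscle had a single MED1 library, so the spread between MED1 libraries is not known. Sol MED1 peaks overlapped 10 higher regions (4.12%) and 13 lower regions (2.68%), and Quad MED1 peaks overlapped 2 higher regions (0.823%) and 36 lower regions (7.42%), against 7.67% and 6.74% of all matched regions. The Myl3 and Esrrg regions held a Sol MED1 peak and no Quad MED1 peak, and the Actn3, Adamts5, Slc16a3, Gpd1 and Myl1 regions held a Quad MED1 peak and no Sol MED1 peak.

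Words of transcription factors were searched on both strands in the 300 bases around the middle of the strongest Quad ATAC peak of each region outside promoters, which gave 406 windows of lower regions, 83 of higher regions and 11651 of all matched regions. The MEF2 box was in 17.2% of the lower windows, 9.64% of the higher windows and 7.54% of all. The MEF3 word was in 7.88% of the lower, 1.20% of the higher and 4.08% of all windows, the E-box in 34.2%, 24.1% and 28.1%, and the half-site AGGTCA in 32.3%, 25.3% and 22.5%. The longer ERR word, which contains the half-site, was in 3.94% of the lower, 4.82% of the higher and 1.78% of all windows. Words for AP-1 and NFAT went the other way, with AP-1 in 13.1% of the lower, 27.7% of the higher and 13.8% of all windows and the NFAT word in 7.14%, 15.7% and 8.06%. The MCAT word was in 16.3%, 19.3% and 17.0%. The GC box (GGGCGG), common at promoters, was in 10.3% of the lower and 18.1% of the higher windows, against 30.8% of all. The median GC content of the windows was 51.0%, 51.0% and 53.7%, and the ATAC peaks of the higher windows were weaker, with a median of 5.63 tags, scaled to a common total, against 10.4 in the lower and 9.62 in all windows. A word is a match of letters and not a bound site, and these shares were not tested.

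**Figure D5:**
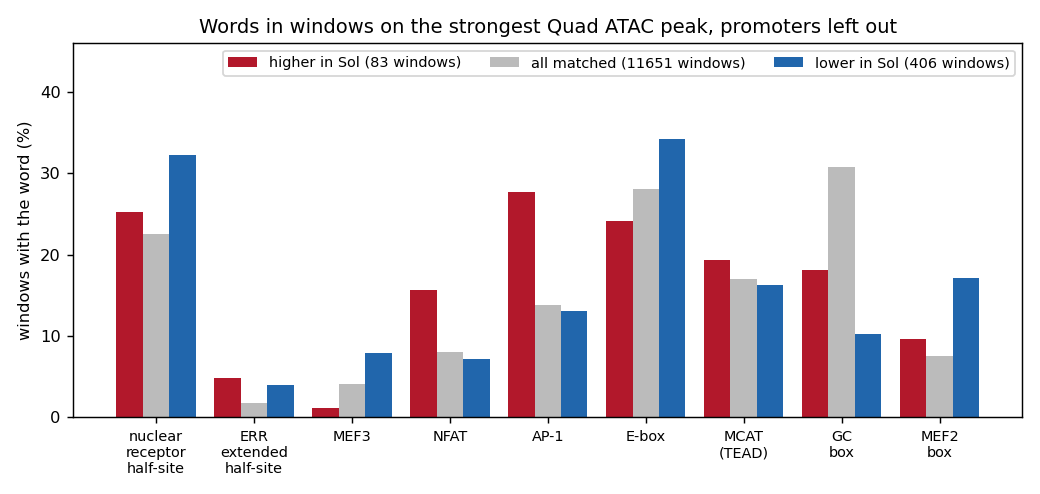
Share of windows (y axis, percent) that held each word (x axis) on either strand, for regions higher in Sol (red, 83 windows), all matched regions (grey, 11651) and regions lower in Sol (blue, 406), promoters left out. The blue bar is the tallest for the MEF2 box (17.2%) and the red bar for AP-1 (27.7%).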

How the data were processed

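H3K27ac, H3K4me2 and MED1 ChIP-seq and ATAC-seq of mouse skeletal muscle were used as peak lists of the mm10 build. Per the file headers and methods, the authors mapped ChIP-seq reads with Bowtie (version 1.2 in the submitters' processing notes), kept unique reads and 1 tag per position. Peaks were called with HOMER, those of H3K27ac and H3K4me2 over both replicates against input. ATAC-seq reads were mapped with Bowtie2, and the ATAC list is 1 call on pooled tags. Each MED1 list comes from a single library. The deposited tag columns are on a log2 scale, normalized by the authors to total tags within each list with DESeq2 and taken here as its regularized logarithm. This transformation pulls low counts of the libraries in a list together, and levels set across lists were normalized separately. The deposited peak score (tags per peak) and the adjusted p-value and fold of the peak caller served in alternatives. The deposited signal of the ATAC list is tags scaled to a common total. The authors' lists of differential regions hold their own comparisons and were not used.

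Each Sol peak was paired with a single Quad peak where both were covered to 50% or more. The level was log2 tags minus log2 width in kb, centred on the median matched region of each library, and differences were centred again on their median. A call needed over 2-fold between means and no overlap of the 2 libraries of each group. The ATAC and MED1 lists were overlapped with the Quad peak of each pair by at least 1 bp. The text names the 12 largest differences in each direction with 1 region per nearest gene, up to 4 called regions of each list, and the strongest region of fiber-type marker genes. Some regions that this rule picks are not reported here. Values of other list members and of regions with several calls were chosen after they were seen. The 11 pathway lists, the 7 marker lists and the comparison itself were chosen with earlier results of these data known. Precision is limited by 2 libraries per group, from 1 animal each in Quad and pooled animals in Sol, so no p-value is given. The call rule was tested on simulated data, drawn from shared region means with a fixed replicate spread per muscle. The simulation held no separate normalization of the lists, difference in width or shift of the input, so it cannot speak to those. Alternatives covered overlap, width, peak thresholds, normalization, level, fold and each library left out. Python 3.11.15, pandas 2.3.3, numpy 2.4.6, scipy 1.17.1, pysam 0.24.0 and matplotlib 3.10.9 were used.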

Additional observations from a re-analysis of the deposited data

How the results depend on the processing

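The main counts were 243 regions higher and 485 lower in Sol, with a rank correlation of 0.872. An overlap of 30% gave 451, 746 and 0.852, and one of 80% gave 45, 136 and 0.905. Without the width term they were 903, 1229 and 0.914, with peaks at an adjusted p under 0.001 they were 114, 298 and 0.837, and with matches of nearly equal width they were 75, 188 and 0.902. Leaving out the 4867 regions of lowest level gave 125 higher regions and a correlation of 0.781. A 1.5-fold threshold gave 1381 and 1728, and a 3-fold threshold 19 and 65. Leaving out each library in turn gave 235 to 452 higher and 457 to 631 lower regions, and correlations of 0.854 to 0.866. In 2 alternatives chosen after seeing the data, the level minus input gave 90, 114 and 0.705, and the peak score gave 143 higher regions. Lower regions outnumbered higher ones under each of these settings, though by little without Quad replicate 1 (452 higher, 468 lower). They did not when another quadriceps list took the place of the Quad list. The Sed list gave 240 higher and 238 lower regions, and the Wt list 505 and 353. The differences at Emcn (-0.133), Nrip1 (0.0376) and Nrp2 (-0.281) changed sign with the input subtracted, as did those of Atp2a2 (-0.318), Myh2 (-0.106) and Tnnt1 (-0.0556), which were not called. That of the Myh1 promoter was 0.231 without the width term. The cause of these shifts was not tested, beyond fewer regions entering under stricter overlap, p, width or level. Named regions kept their sign in 627 of 634 alternatives and list medians in 252 of 269. Most named regions were chosen for large differences in the same libraries that the alternatives reuse, so kept signs are no separate support. No paired analysis was possible because the result comes from no test and a shared replicate number marks no shared animal.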

Other observations

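Called regions lay near each other in places. Within 100 kb of another called region were 182 of the 728, in 83 groups, of which 66 held a single direction and 17 held both. The largest group had 4 regions near 1700104L18Rik and Gm7550, all higher in Sol by 1.12 to 1.46, and 3 regions near A230009B12Rik were higher by 1.08 to 1.36. Groups of 3 lower regions lay near Cebpe and Slc7a8 (-1.99 to -1.54), near 4930405A10Rik (-2.06 to -1.45) and near Mkl2 (-1.62 to -1.17). These groups were noticed after the values were seen, and how often unrelated regions lie as close was not tested.

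Among genes with both kinds of region, Glul, which codes for glutamine synthetase, had one region 1.24 higher and one 1.15 lower in Sol. Nampt, the NAD salvage enzyme, had one 1.22 higher and one 1.42 lower.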
